A study of Mus musculus with 14 samples.

Results

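The genes of MHC class II antigen presentation were examined in mammary epithelial cells (MECs) of mice that overexpress Usp22. They were taken by symbol from the deposited expression table, and 8 of the 8 genes listed were present among its 16124 genes: H2-Aa, H2-Ab1 and H2-Eb1, H2-DMa and H2-DMb1, Cd74, Ciita and Ctss. Polyadenylated RNA was sequenced from the MECs of 7 WT and 7 Rosa26KI-Usp22 OE/OE females, which were nulliparous and 3.5 months old. Each library came from 1 mouse, and each WT mouse was matched with an OE/OE littermate in the pairs numbered 1, 3, 4, 5, 6, 7 and 8. The OE/OE mice were homozygous for a FLAG- and MYC-tagged Usp22 cDNA driven by the CAGGS promoter at ROSA26. Its STOP cassette had been removed by Zp3-Cre, so expression of the transgene was ubiquitous and not limited to the epithelium. The cells came from glands 2 to 4, and lymph nodes were taken out of the number 4 glands. After collagenase and hyaluronidase digestion, pulse centrifugation separated epithelial organoids from stroma, with no sorting on surface markers, so a bulk library could hold RNA of other cells left in the preparation.

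MHC class II molecules show peptides from proteins taken up by the cell to CD4+ T cells. An alpha and a beta chain assemble with the invariant chain (Cd74), cathepsin S (Ctss) trims that chain in the endosome, and H2-DM exchanges the remaining fragment for a peptide. Dendritic cells, macrophages and B cells make these molecules constantly, and other cells, epithelium included, can make them after exposure to interferon gamma. The transactivator Ciita does not bind DNA itself and is recruited by factors seated on conserved promoter elements, among them the X box and the Y box.

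The promoter windows of 3 of these genes are printed because they hold the Y box letters near the start, beginning at most 61 bases before it, with or without letters of the X box upstream. Each runs from 250 bases before to 50 bases after a RefSeq start, 5′ to 3′ along the gene, on GRCm38.p6. Capitals mark matches, on either strand, to the Y box letters ATTGG, the X box letters CCTAGNNAC or the looser AGNAACNNA, and the last pair overlap in H2-DMb1 and form a single run. The windows are chr17:34287774-34288073 (minus strand) for H2-Aa, chr17:34305617-34305916 (plus strand) for H2-Eb1 and chr17:34152941-34153240 (plus strand) for H2-DMb1.
H2-Aa: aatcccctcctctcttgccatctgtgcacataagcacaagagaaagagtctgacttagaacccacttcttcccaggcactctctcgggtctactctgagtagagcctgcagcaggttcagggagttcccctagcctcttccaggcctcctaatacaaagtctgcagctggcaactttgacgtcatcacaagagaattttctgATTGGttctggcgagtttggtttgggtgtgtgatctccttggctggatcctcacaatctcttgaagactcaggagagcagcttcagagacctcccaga
H2-Eb1: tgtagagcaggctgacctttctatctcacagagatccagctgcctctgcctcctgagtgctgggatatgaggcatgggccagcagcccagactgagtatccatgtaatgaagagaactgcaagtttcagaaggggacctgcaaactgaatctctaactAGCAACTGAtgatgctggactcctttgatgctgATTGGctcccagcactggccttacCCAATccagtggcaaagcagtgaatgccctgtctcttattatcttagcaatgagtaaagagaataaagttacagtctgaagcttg
H2-DMb1: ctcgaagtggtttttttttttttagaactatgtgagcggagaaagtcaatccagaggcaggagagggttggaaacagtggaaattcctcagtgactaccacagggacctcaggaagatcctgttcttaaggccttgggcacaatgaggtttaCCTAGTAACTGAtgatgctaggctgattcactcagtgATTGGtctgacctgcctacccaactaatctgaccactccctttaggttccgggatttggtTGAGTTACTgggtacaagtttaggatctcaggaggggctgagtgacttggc

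The RefSeq table held 6 windows for 5 of the 8 genes (H2-Aa, H2-Eb1, H2-DMb1, H2-DMa with 2 starts, and Ctss). H2-Ab1, Cd74 and Ciita were not among them. The Y box letters ATTGG, read on both strands, were in 4 of the 6 windows, against 37.4% of the 32851 windows of all genes. They began 48 bases before the start of H2-Aa, 59 before that of H2-Eb1, 61 before that of H2-DMb1 and 198 before that of 1 of the 2 starts of H2-DMa, and H2-Eb1 held a further match on the other strand. The X box letters CCTAGNNAC were in the H2-DMb1 window alone, against 3.91% of all windows. The looser letters AGNAACNNA, which were written after these windows had been read, were followed within 40 bases by ATTGG on the same strand in H2-Eb1 and H2-DMb1. That arrangement was in 172 of the 32851 windows (0.524%), among them those of the class II genes H2-Eb2, H2-Oa and H2-Ob. These matches describe letters in a window and do not show that a factor binds there.

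The libraries held between 20125106 and 41835978 fragments on genes, the fewest being in the WT mice of pair 1 (20125106) and pair 8 (22632805). For Usp22, the WT mean was 4258 ± 695 normalized counts and the OE/OE mean 107588 ± 22273 (SD, n = 7 each), a log2 fold change of 4.65. The epithelial markers were high in every library. Epcam, an epithelial adhesion molecule, had at least 34412 normalized counts, Krt8, a luminal keratin, at least 99133, and Krt14, a basal keratin, at least 20087. Leukocyte markers were present at lower levels in all 14 libraries, with 132 to 995 normalized counts of Ptprc (CD45, on all leukocytes), 191 to 599 of Adgre1 (F4/80, on macrophages) and 300 to 1001 of Itgax (CD11c, on dendritic cells and some macrophages). The T cell gene Cd3e had 6.10 to 92.0 normalized counts, with its highest value in the WT library of pair 1. The B cell gene Cd79a had 676 normalized counts in that same WT library and at most 24.5 in any OE/OE library. That WT library stood apart from the others in B cell genes, and results that rest on it are given with and without it, or beside a median.

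All 8 genes were detected in every library, at levels that covered about 3 orders of magnitude per length. Divided by the kilobases of annotated exon, the mean level over the 14 libraries was highest for Cd74, the invariant chain, at 9751 ± 3156 normalized counts per kb (SD, n = 14). The 3 chains of the classical molecules came next, with H2-Eb1 at 3180 ± 1225, H2-Ab1 at 2088 ± 955 and H2-Aa at 1712 ± 715 normalized counts per kb. Ctss had 1203 ± 571 normalized counts per kb, and from H2-Eb1 to Ctss each gene lay within 1 SD ranges that overlapped with those of the next. Cd74 and H2-Eb1 did not overlap in this sense, nor did Ctss and H2-DMb1. The 2 chains of the peptide exchange molecule were lower, with H2-DMb1 at 436 ± 147 and H2-DMa at 140 ± 40.7 normalized counts per kb. Ciita was the lowest, at 8.28 ± 3.05 normalized counts per kb.

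The order of the chains depended on the length used. Within each library H2-Eb1 exceeded H2-Ab1 per kb of all exons, by 0.42 to 0.96 on the log2 scale, and H2-Ab1 exceeded H2-Aa in each of the 14. With the length of the longest transcript in place of all exons, H2-Ab1 had 4424 normalized counts per kb and moved above H2-Eb1, at 3704. H2-DMa then had 240 and Ciita 13.1 normalized counts per kb, and Cd74 remained the highest and Ciita the lowest.

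**Figure D1:**
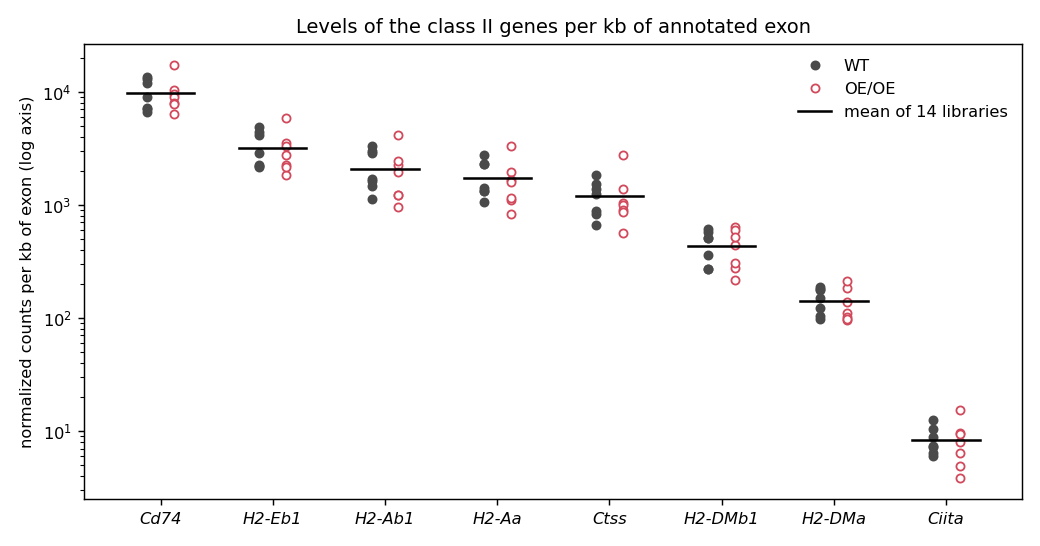
Level of each MHC class II gene in normalized counts per kb of annotated exon (log axis), with filled points for the 7 WT libraries, open points for the 7 OE/OE libraries and a bar at the mean of the 14. Cd74 (mean 9751) lies at the top and Ciita (mean 8.28) at the bottom, and the WT and OE/OE points cover overlapping ranges for every gene.

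Overexpression of Usp22 was compared with WT within littermate pairs. No MHC class II gene passed the test in either direction. At an unadjusted p of 0.05 or less, limma with a block for each pair called 0 of the 8, against 3.81% of all 16124 genes tested (1.95% with higher and 1.85% with lower levels in OE/OE). None changed in the same direction in all 7 pairs, which 1.51% of all genes did. The 8 unadjusted p-values ran from 0.253 to 0.958 in limma, and each adjusted p was 1.00 (Benjamini-Hochberg over all genes). An adjusted p under 0.05 was reached by 0.0124% of all genes. Over all genes limma's standard error of a log2 fold change had a median of 0.14, and for these genes it ran from 0.10 to 0.21. In bulk samples, fewer cells of a type and less RNA per cell cannot be told apart.

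The 8 estimates had a median of -0.11 on the log2 scale, beside -0.0015 for all genes. They all lay below 0, except that Cd74 lay at 0.01 after median centring of the libraries. Cd74 and Ctss also moved above 0 without pair 1 (0.05 and 0.02), without pair 4 (0.04 and 0.0042) and without pair 5 (0.07 and 0.12). The 95% intervals of the 8 log2 fold changes reached from -0.54 at the lowest to 0.42 at the highest, and all included 0. Changes within these bounds were therefore not separable from the spread between pairs at this number of mice.

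**Figure D2:**
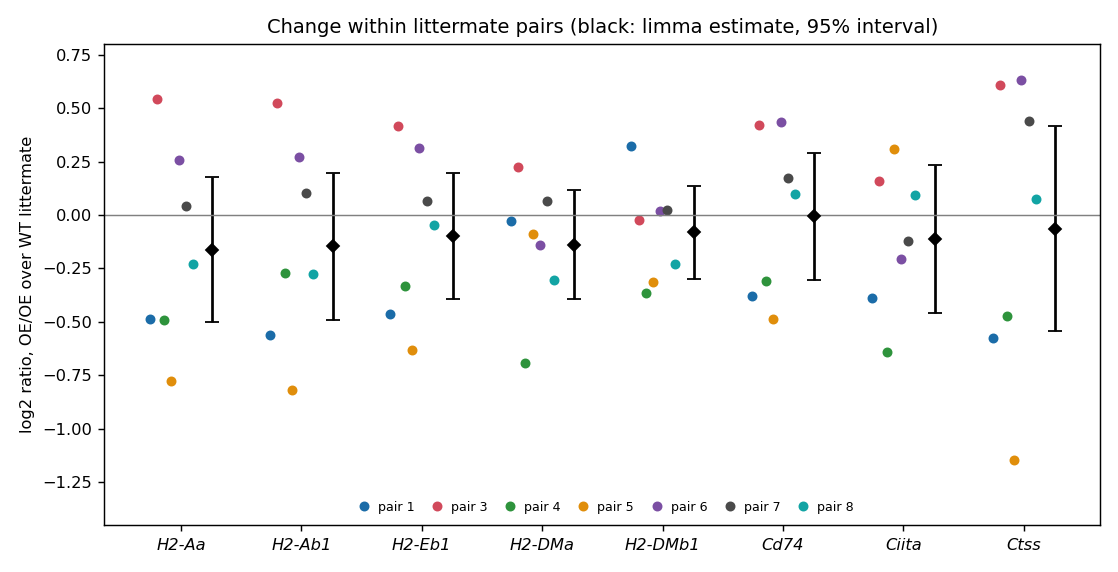
Log2 ratio of the OE/OE mouse over its WT littermate for each MHC class II gene, with 1 coloured point per pair and, in black, limma's estimate with its 95% interval. Points lie on both sides of 0 for every gene, and each of the 8 intervals crosses 0.

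The alpha chain of the classical molecule I-A is encoded by H2-Aa (chromosome 17, 34282744 to 34287823, minus strand of GRCm38). H2-Aa had 4038 normalized counts in the lowest WT library, 5350 at the median and 10360 in the highest, against 3124, 6004 and 12573 in OE/OE. The OE/OE values spanned the whole WT range, with the OE/OE mouse of pair 3 above every WT mouse and that of pair 5 below every WT mouse. The log2 ratio was -0.49 in pair 1, 0.54 in pair 3, -0.49 in pair 4, -0.78 in pair 5, 0.26 in pair 6, 0.04 in pair 7 and -0.23 in pair 8. In limma the log2 fold change was -0.16 ± 0.15 (SE, 95% interval -0.50 to 0.18, p = 0.307), and an exact two-sided sign-flip test over the 7 pairs, whose smallest possible p is 0.0156, gave p = 0.438.

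Its partner, the beta chain, is encoded by H2-Ab1 (chromosome 17, 34257689 to 34269419, plus strand). H2-Ab1 had 2906, 4303 and 8531 normalized counts at the lowest, median and highest WT library, and 2439, 4992 and 10665 in OE/OE. Again the OE/OE mice of pairs 3 and 5 lay outside the WT range, on opposite sides of it. The log2 fold change was -0.15 ± 0.15 in limma (95% interval -0.49 to 0.20, p = 0.359; exact sign-flip p = 0.422), with the OE/OE mouse higher in 3 of 7 pairs. H2-Aa and H2-Ab1 followed each other closely, and their log2 ratio within a library was 0.31 ± 0.13 (SD, n = 14), between -0.01 and 0.47. It did not separate the genotypes (mean difference -0.02 within pairs, exact sign-flip p = 0.781).

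The beta chain of the other classical molecule, I-E, is encoded by H2-Eb1 (chromosome 17, 34305867 to 34316674, plus strand). H2-Eb1 had 4152, 5569 and 9471 normalized counts at the lowest, median and highest WT library, and 3596, 5396 and 11401 in OE/OE. The highest and the lowest libraries were the OE/OE mice of pairs 3 and 5, as for the I-A chains. Its log2 fold change was -0.10 ± 0.13 in limma (95% interval -0.39 to 0.20, p = 0.479; exact sign-flip p = 0.547), and the pair ratios ran from -0.63 in pair 5 to 0.42 in pair 3. An antisense gene, Gm20513, overlaps H2-Eb1, and whether the counting used strand was not stated. The alpha chain of I-E, H2-Ea, was not among the gene symbols of the expression table, so it was not analysed.

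Cd74 encodes the invariant chain, the chaperone that fills the peptide groove and directs new class II molecules to the endosome (chromosome 18, 60803848 to 60812652, plus strand). Cd74 had 11110, 15056 and 22648 normalized counts at the lowest, median and highest WT library, and 10737, 15020 and 29064 in OE/OE. The medians of the genotypes lay close together, and the OE/OE mouse of pair 3 stood above all other mice. The log2 fold change was -0.0071 ± 0.13 in limma (95% interval -0.30 to 0.29, p = 0.958; exact sign-flip p = 0.984), with the OE/OE mouse higher in 4 of 7 pairs. Relative to H2-Ab1 in the same library, Cd74 was higher in the OE/OE mouse in 5 of 7 pairs, by 0.14 on the log2 scale, a difference that did not pass the exact sign-flip test (p = 0.0938, 6 ratios tested and not adjusted).

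The chaperone H2-DM, which removes the invariant chain fragment and edits the bound peptides, is made of an alpha chain (H2-DMa, chromosome 17, 34119541 to 34139101, plus strand) and a beta chain (H2-DMb1, chromosome 17, 34153072 to 34160230, plus strand). H2-DMa had 338, 522 and 644 normalized counts at the lowest, median and highest WT library, and 333, 377 and 725 in OE/OE. In pair 4 the OE/OE mouse had 377 against 610 in its WT littermate, a log2 ratio of -0.69 that was the farthest from 0. The other 6 pairs lay between -0.31 and 0.22. Its log2 fold change was -0.14 ± 0.11 in limma (95% interval -0.39 to 0.12, p = 0.253; exact sign-flip p = 0.266). H2-DMa overlaps Brd2 on the opposite strand, so its counts could include reads of that gene if strand was not used.

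H2-DMb1 had 455, 855 and 1025 normalized counts at the lowest, median and highest WT library, and 366, 747 and 1071 in OE/OE. It varied least between littermates, with pair ratios between -0.37 in pair 4 and 0.32 in pair 1, and its standard error was the smallest of the 8 genes. Its log2 fold change was -0.08 ± 0.10 in limma (95% interval -0.30 to 0.13, p = 0.416; exact sign-flip p = 0.438). H2-DMb1 has a near-identical neighbour, H2-DMb2, so the division of reads between them is uncertain. The log2 ratio of H2-DMa to H2-DMb1 within a library was -0.58 ± 0.23 (SD, n = 14), with no difference between genotypes past the exact sign-flip test (p = 0.547).

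Ctss encodes cathepsin S, the endosomal protease that degrades the invariant chain in antigen presenting cells (chromosome 3, 95526786 to 95556403, plus strand). Ctss had 906, 1690 and 2470 normalized counts at the lowest, median and highest WT library, and 763, 1344 and 3765 in OE/OE. It was the most variable of the 8 genes within pairs, from -1.15 in pair 5 to 0.63 in pair 6 on the log2 scale. The log2 fold change was -0.06 ± 0.21 in limma (95% interval -0.54 to 0.42, p = 0.771; exact sign-flip p = 0.859), and the OE/OE mouse was higher in 4 of 7 pairs.

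Ciita encodes the transactivator that switches on the class II genes (chromosome 16, 10480059 to 10528418, plus strand). Ciita had 57.4, 69.9 and 118 normalized counts at the lowest, median and highest WT library, and 36.4, 76.3 and 147 in OE/OE. Both mice of pair 5 held the highest Ciita levels, although the OE/OE mouse of that pair had the lowest H2-Aa, H2-Ab1, H2-Eb1 and Cd74. The log2 fold change was -0.11 ± 0.15 in limma (95% interval -0.46 to 0.23, p = 0.479; exact sign-flip p = 0.406). Dexi lies on the opposite strand within the annotated span of Ciita, so the low Ciita counts could include its reads if strand was not used.

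**Figure D3:**
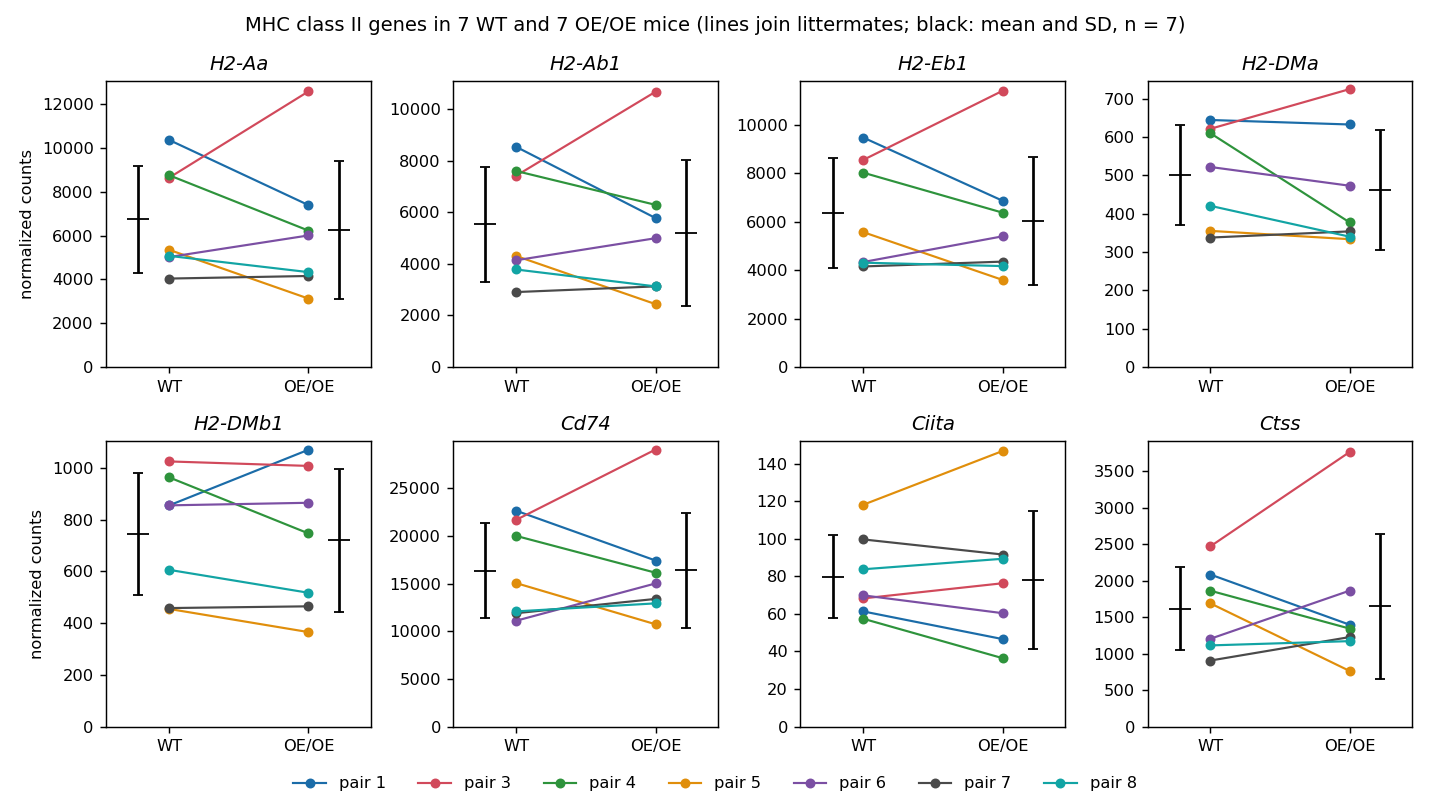
Normalized counts of the 8 MHC class II genes in WT and OE/OE mice, with lines joining littermates and the mean and SD of each genotype (n = 7) in black. Lines run both up and down in every panel, and the OE/OE mouse of pair 3 is highest for H2-Aa (12573), H2-Ab1 (10665), H2-Eb1 (11401), H2-DMa (725), Cd74 (29064) and Ctss (3765).

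Most of the variation of the MHC class II genes lay between littermate pairs. Whether littermates were also prepared together was not stated, so litter and preparation cannot be told apart. Over the 14 libraries the highest value of a gene was between 2.17 times (H2-DMa) and 4.94 times (Ctss) its lowest. After the genotype means were removed, 87.1% of the variance of the log2 levels lay between pairs at the median of the 8 genes, where equal parts between and within pairs would be expected if littermates were no more alike than other mice. It was 95.2% for H2-DMb1, 90.5% for Ciita, 88.0% for H2-DMa, 87.6% for H2-Ab1, 86.6% for H2-Eb1, 84.4% for H2-Aa, 81.8% for Cd74 and 70.3% for Ctss. The median over all genes was 77.1%, with quartiles of 61.4% and 88.0%, so H2-DMb1 and Ciita lay above the upper quartile, H2-DMa at it, and the other 5 between the quartiles.

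The litters fell in nearly the same order for the classical chains and the invariant chain, with pairs 3, 1, 4 and 6 in the first places by litter mean for all 4 genes. The 6 libraries of pairs 1, 3 and 4 held 6225 to 12573 normalized counts of H2-Aa, and the 8 libraries of pairs 5, 6, 7 and 8 held 3124 to 6004. H2-Ab1 had 5772 to 10665 in the former libraries and 2439 to 4992 in the latter. H2-Eb1 had 6371 to 11401 and 3596 to 5569, and Cd74 had 16145 to 29064 and 10737 to 15056. These 4 genes did not overlap between those litters, in mice of either genotype. The share of all genes divided in this way was not counted, and 77.1% of the variance lay between pairs at the median gene. The division was made after the values were seen and was not tested.

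The remaining genes followed this order in part. H2-DMa had 377 to 725 normalized counts in pairs 1, 3 and 4 and 333 to 522 in the other pairs, H2-DMb1 had 747 to 1071 and 366 to 866, and Ctss had 1344 to 3765 and 763 to 1864. These ranges overlapped, and pair 6 in particular lay beside pair 4 for both H2-DM chains. Ciita ran the other way, with 36.4 to 76.3 normalized counts in pairs 1, 3 and 4 and 60.4 to 147 in the other pairs. The log2 ratio of Ciita to H2-Ab1 within a library therefore ranged from -7.39 to -4.05 (mean -6.02 ± 1.06, SD, n = 14), against a range of -0.01 to 0.47 for H2-Aa over H2-Ab1.

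**Figure D4:**
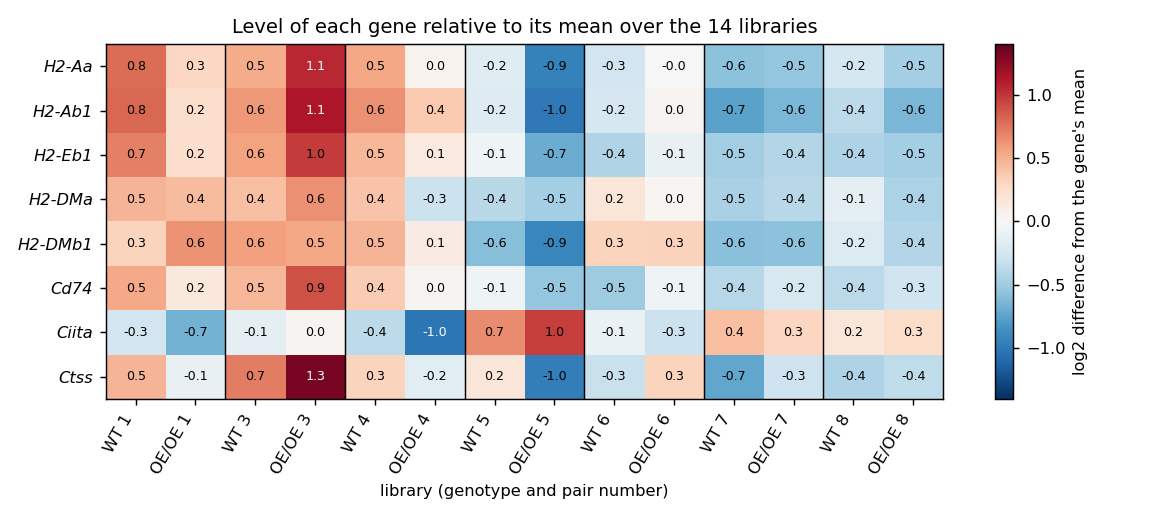
Log2 level of each MHC class II gene relative to its mean over the 14 libraries, with libraries in columns (genotype and pair number, littermates side by side, pairs divided by lines) and red for above and blue for below the mean. H2-Aa, H2-Ab1, H2-Eb1 and Cd74 are at or above their means in all 6 libraries of pairs 1, 3 and 4, and the Ciita row shows the reverse in most columns.

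Genes whose levels resembled those of the classical chains were ranked by Pearson correlation over the 14 libraries with the mean standardized level of H2-Aa, H2-Ab1, H2-Eb1 and Cd74. The 14 libraries are 7 sets of littermates and share the litter differences described above, so these values are descriptions and carry no p. Outside the pathway and marker lists the nearest gene was Mfge8, which encodes the milk fat globule protein lactadherin, at r = 0.958. The others were Rac3 (0.944), Aldoc (0.934), Dusp14 (0.927), Rcn2 (0.925), Arf6 (0.924), Ints13 (0.920), Ndfip2 (0.919), Gm2a (0.918) and Cyp4f18 (0.917). Mfge8 had a mean of 42387 normalized counts, and its OE/OE over WT ratios in the 7 pairs also followed those of the class II genes (r = 0.975, n = 7 pairs). For Rac3 the same correlation of pair ratios was 0.659. Some leukocyte markers were also close, with r = 0.941 for the macrophage gene Aif1 and 0.908 for the T cell gene Lck. The macrophage genes C1qb and C1qa had 0.869 and 0.849. Correlations of pair ratios for Aif1, Lck, C1qb and C1qa were 0.857, 0.771, 0.893 and 0.914. That of the pan-leukocyte gene Cd53, with r = 0.602 over the libraries, was 0.909. Other leukocyte markers were not close over the libraries, with 0.116 for Ptprc, -0.0059 for Adgre1, -0.248 for Csf1r and -0.645 for Mrc1. Their correlations of pair ratios were 0.778, 0.804, 0.711 and -0.059. Among epithelial markers, Epcam had 0.795, Krt14 0.782 and Krt8 0.103 over the libraries. Their correlations of pair ratios were 0.822, 0.73 and -0.103. Several hormone-sensing luminal genes ran the other way over the libraries, with -0.854 for Esr1, -0.814 for Foxa1, -0.704 for Prlr and -0.636 for Pgr. On the pair ratios these genes had -0.626, -0.894, -0.341 and -0.234. The hormone-sensing luminal gene Cited1 had 0.715 over the libraries and 0.206 on the pair ratios. Among the genes of the pathway itself, Ctss had r = 0.921, H2-DMa 0.863 and H2-DMb1 0.803 over the 14 libraries, and Ciita had -0.557. On the pair ratios, which leave out the differences between litters, Ctss kept a value of 0.972 while H2-DMa had 0.424, H2-DMb1 0.248 and Ciita 0.123.

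The rest of the class II pathway was examined through lists of genes, which were written with earlier results of these data known. Of the 64 listed genes outside the 8, 58 were in the table, and 0 were higher and 3 lower in OE/OE at an unadjusted p of 0.05 or less (limma). Their median log2 fold change was -0.02, beside -0.0015 for all genes. Over all genes 1.95% were higher and 1.85% lower at this threshold. With such shares a count of 0 in a short list does not set it apart from all genes. Of 12 listed genes of peptide processing and turnover 0 passed in either direction, with a median log2 fold change of 0.00098. They included the lysosomal proteases Ctsb (0.01), Ctsl (-0.12) and Ctsd (-0.02) and the protease inhibitor Cst3 (-0.23). Of the 19 transcription genes measured, 0 passed, with a median of -0.0061, and the most abundant were the kinases Jak1 (0.01) and Jak2 (-0.00070), the interferon response factor Irf1 (-0.05) and the histone demethylase Kdm1a (0.08). The listed gene Ifng was not in the table, so it was not analysed.

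MHC class I presentation, which shows peptides from inside the cell to CD8+ T cells, gave a similar count, with 0 of 18 genes past the test and a median log2 fold change of 0.03. The heavy chains H2-D1 (-0.01) and H2-K1 (0.0078), the light chain B2m (0.10) and the chaperone Calr (0.15) were the most abundant. All 4 had at least 11892 normalized counts in every library. Within the list of costimulatory molecules for CD4+ T cells, 2 of 6 genes in the table were lower in OE/OE and 0 were higher. The share of all genes called lower was 1.85%. The median log2 fold change of the 6 genes was -0.35. Cd83, a surface protein of mature dendritic cells, had 339, 640 and 889 normalized counts at the lowest, median and highest WT library and 179, 410 and 592 in OE/OE. It fell by 0.52 on the log2 scale (SE 0.15, limma p = 0.00772, exact sign-flip p = 0.0312), and was lower in 6 of 7 OE/OE mice. Cd40, the receptor through which T cells activate antigen presenting cells, fell by 0.55 (SE 0.20, limma p = 0.0233, exact sign-flip p = 0.0312), from a WT median of 48.9 to an OE/OE median of 37.6 normalized counts. Neither passed the adjustment over all genes, and neither passed the unadjusted threshold without the block. Cd83 passed with any 1 pair left out, whereas Cd40 did not pass without pair 5 or pair 6. The other 4 costimulatory genes did not pass, among them Cd274 (0.04), Icosl (-0.09) and Cd86 (-0.29).

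The chains H2-DMb2, H2-Oa and H2-Ob, of which H2-O is the B cell inhibitor of H2-DM, had mean levels of 22.3, 47.3 and 7.51 normalized counts per kb, below H2-DMa (140). These means were raised by the WT library of pair 1. Over the 14 libraries H2-DMb2 had a mean of 38.9 and a median of 21.2 normalized counts. H2-Oa had 66.6 and 49.4, and H2-Ob 40.4 and 26.1. Of these 3, H2-Ob had a limma log2 fold change of -0.84 (SE 0.35, p = 0.0392, exact sign-flip p = 0.0469), with 19.3, 26.4 and 257 normalized counts at the lowest, median and highest WT library and 7.67, 20.5 and 39.2 in OE/OE. The highest of these was the WT library of pair 1. Without that pair the log2 fold change was -0.53 and did not pass, and it did not pass without pair 4 (-0.68) or pair 7 (-0.83) either. In the same library H2-DMb2 had 259 and H2-Oa 177 normalized counts, also the highest of the 14. H2-Aa, H2-Ab1, H2-Eb1 and Cd74 were not highest there, since the OE/OE mouse of pair 3 exceeded it in each.

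Marker genes of antigen presenting cells were set beside the class II genes in each pair. All 12 macrophage markers were in the table with none at 0, their summed level was 12284 to 26428 normalized counts in WT and 11502 to 29812 in OE/OE, and 0 of 12 passed the limma test. Of the 12, Cd14 is also a luminal progenitor marker. The OE/OE minus WT difference of their mean log2 level was -0.31 in pair 1, 0.52 in pair 3, -0.52 in pair 4, -0.73 in pair 5, -0.0049 in pair 6, 0.10 in pair 7 and 0.02 in pair 8. Those of H2-Ab1 in the same pairs were -0.56, 0.52, -0.27, -0.82, 0.27, 0.11 and -0.27, so pairs 1, 4 and 5 were lower and pairs 3 and 7 higher in both. The pattern was not particular to macrophage markers. In the same order of pairs, the luminal progenitor score differed by -0.24, 0.55, -0.10, -0.63, 0.31, -0.21 and -0.17. The pan-leukocyte score differed by -1.17, 0.23, -0.33, -0.64, 0.04, 0.17 and -0.03. The part of macrophages or of any other cell type in the class II values was not tested.

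Dendritic cell markers (8 of 10 in the table, summed level 903 to 2080 in WT and 830 to 1743 in OE/OE, none at 0) also gave 0 genes past the test. Their score was lower in the OE/OE mouse by 0.71 in pair 1, 1.03 in pair 4 and 0.68 in pair 5, and higher by 0.31 in pair 3. T cell markers (8 of 10, 257 to 1264 in WT and 256 to 908 in OE/OE) and B cell markers (4 of 10, 147 to 4295 in WT and 134 to 644 in OE/OE) gave 0 genes past the test as well. The WT library of pair 1 had the highest sum in both lists, and without it the WT libraries reached 593 for T cell and 872 for B cell markers. Among 6 pan-leukocyte markers Cd53 alone passed, with a limma log2 fold change of -0.53 (p = 0.0469, exact sign-flip p = 0.125), which did not pass without pair 1 (-0.36), 4, 5, 6 or 7. The pan-epithelial score was higher in the OE/OE mouse in 6 of 7 pairs, by 0.11 on average. In all, 85 of the 95 listed marker genes were in the table, and 1 was higher and 7 were lower in OE/OE at the unadjusted threshold. Over all genes the shares were 1.95% higher and 1.85% lower.

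Among the marker lists, the largest shifts were in adipocyte, B cell and fibroblast markers. The B cell score was lower in the OE/OE mouse in 5 of 7 pairs, by 0.68 on average, and by 0.12 without pair 1. The adipocyte score was lower in the OE/OE mouse in 6 of 7 pairs, by 0.77 on average, and 3 of 6 genes passed in limma, with log2 fold changes of -1.30 for the hormone gene Adipoq, -1.30 for the lipid droplet gene Plin1 and -1.33 for Cidec. These 3 genes had at most 126 normalized counts in any library. The fibroblast score was lower in 5 of 7 pairs, by 0.43 on average, and all 7 genes had estimates below 0. Among them the matrix gene Lum (-0.53) and the receptor gene Pdgfra (-0.40) passed, although Lum did not without pair 5, nor Pdgfra without pair 3, without pair 5 or without the block. The luminal progenitor gene Aldh1a3 (-0.46) passed and was lower in all 7 pairs. It was the only gene of its list to pass, and 4 of the 7 luminal progenitor genes had estimates above 0 (median 0.02). The epithelial junction gene Cldn7 (0.35), which did not pass without the block, was higher in all 7 pairs. The listed basal, endothelial and hormone-sensing luminal markers gave 0 genes past the test. Whether these differences in cell markers bear on the class II genes was not tested.

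The leukocyte and epithelial marker lists were also described by the division of pairs 1, 3 and 4 from the others. That division was chosen after the class II values were seen. Overlap of a list across it is therefore no contrast with the class II genes. The mean log2 level of the macrophage markers was 8.91 to 9.90 in pairs 1, 3 and 4 and 8.69 to 9.41 in the other pairs, with 53.1% of its variance between pairs, and the dendritic cell score had 63.8%. The T cell score was 5.32 to 7.12 in pairs 1, 3 and 4 and 4.21 to 5.57 in the other pairs (77.2% between pairs), and it overlapped through the OE/OE mouse of pair 6. The pan-leukocyte score (8.02 to 9.81 and 7.56 to 8.596) had 80.3% and the pan-epithelial score (14.7 to 15.1 and 14.4 to 14.9) 94.5% of its variance between pairs. Their part in the class II values of these litters was not tested. The MHC class I score had 88.4%. Its values were 12.24 to 12.59 in pairs 1, 3 and 4 and 11.81 to 12.22 in the other pairs. How common such a division is among all genes was not counted.

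**Figure D5:**
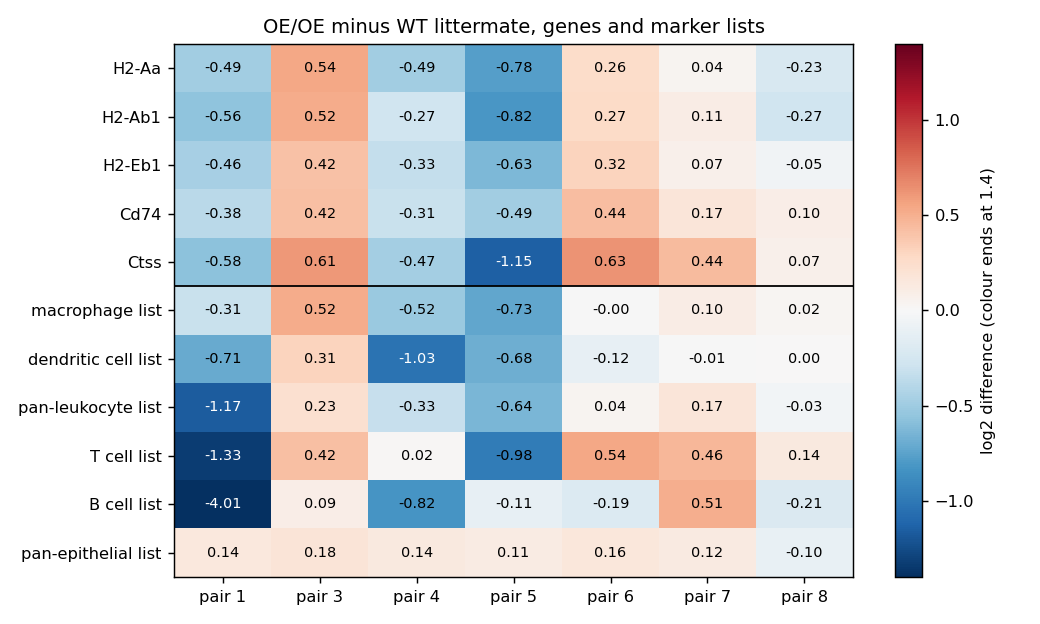
OE/OE minus WT difference within each pair, on the log2 scale, for 5 MHC class II genes (above the line) and for the mean log2 level of 6 marker lists (below it). Pairs 1, 4 and 5 are blue in the 5 class II genes and in the macrophage, dendritic cell, pan-leukocyte and B cell lists. The B cell list in pair 1 (-4.01) lies beyond the end of the colour scale.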

How the data were processed

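The submitters' processing notes name TopHat2 2.0.10, HTSeq 0.6.0 and DESeq 1.18.0, and the authors mapped read pairs to mm10, counted fragments per GENCODE gene, dropped genes that did not reach 10 fragments in 7 libraries, and divided by size factors. The deposited values are thus a linear signal (normalized counts), and no samples were pooled. In each library 100% of them were whole multiples (within 0.01 fragments) of the value of 1 fragment, which gave the depth. Counting error is included in the spread between mice and weighs most on genes with few counts, such as Ciita and H2-Ob.

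The 16124 identifiers matched GENCODE M21 (GRCm38), the source of positions and exon lengths, and promoter windows came from RefSeq. The pairing came from the sample titles and the study's methods, which match littermates. Deviations from the genotype mean correlated across genes between littermates (median 0.522, lowest 0.171). Between other WT and OE/OE mice the median was -0.151 over 42 combinations. Deviations within a genotype sum to 0, so positive values for littermates draw the other values below 0. The median of -0.151 is therefore no separate evidence on the pairing.

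The test was limma 3.58.1 in R 4.3.3 on log2(normalized count + 1) over all genes, with the pair as a block, a mean-variance trend and an unadjusted threshold of 0.05 as in the study. The scale understates changes of genes with few counts. The code was tested on simulated data. On the recovered fragments edgeR 4.0.16 (quasi-likelihood) and DESeq2 1.42.0 called 597 and 626 genes. Single values were also tested by exact sign flips over the 128 patterns of 7 pairs.

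The 8 genes and all lists were chosen with earlier results of these data known. The text names each of the 8, list genes past the threshold, up to 4 most abundant genes per pathway list, the 10 nearest genes by correlation, single cell markers and Usp22. The X and Y box letters were written from general knowledge of class II promoters. Alternatives covered the pseudocount, a filter on low values, the trend, the block, the scaling, the count tests, gene length and each pair left out.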

Additional observations from a re-analysis of the deposited data

Results flagged for a closer look

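The 8 class II genes, the 3 further chains in the table and the scores of 6 marker lists were examined for a library far from the rest of its genotype, meaning a gap to the nearest library that is above Dixon's 95% critical value for its share of the group's range. This was met in 7 of 34 groups. The groups share mice and hold genes that follow each other, so this count was not set against chance. In the OE/OE group the mouse of pair 3 stood above the others in H2-Eb1 (11401 normalized counts, nearest 6863, gap 0.582 of the range), Cd74 (29064, nearest 17425, gap 0.635) and Ctss (3765, nearest 1864, gap 0.633). Its WT littermate was not apart in these genes.

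In the WT group the mouse of pair 1 stood above the others in H2-DMb2 (259 normalized counts, nearest 33.3, gap 0.896) and H2-Ob (257, nearest 29.2, gap 0.959). It was also the highest in the dendritic cell score (mean log2 level 6.997, nearest 6.37, gap 0.601) and in the B cell score (9.10, nearest 5.31, gap 0.795).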

How the results depend on the processing

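Across 16 alternative settings the 8 class II genes were fitted again, and 0 of their log2 fold changes passed the threshold while 7 had the opposite sign. Those were Cd74 with median centring (0.012), and Cd74 and Ctss when a pair was left out, with ranges of -0.081 to 0.073 for Cd74 and -0.18 to 0.12 for Ctss. Exact sign flips of the untransformed normalized counts also gave an opposite direction for Cd74 (p = 0.969) and Ctss (p = 0.906). Leaving out each pair kept the others below 0, with H2-Aa between -0.28 and -0.06 and H2-Eb1 between -0.18 and -0.0077. Without the replicate block the pairing was lost and 182 of all genes passed the threshold in place of 614. With 1 pair left out the count ran from 381 (without pair 6) to 1366 (without pair 4), with 1196 without pair 1. The cause was not tested. The block changed no call of the 8 genes, while without it Cd40, Cd83, Cd53 and H2-Ob did not pass. H2-Ob also did not pass with a pseudocount of 10 (-0.64) or quantile normalization (-0.73), nor Cd53 with edgeR (-0.52), without the trend or after either rescaling. With the longest transcript as the length, the levels per kb moved to 4424 for H2-Ab1, 240 for H2-DMa and 13.1 for Ciita. Depth limits most the genes with few counts, Ciita among the 8 and H2-DMb2, H2-Ob, H2-Oa and Cd40 among the others.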
